A study of Mus musculus with 16 samples.

Results

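The transcriptional response to 24 h of β-adrenergic stimulation was examined in adipocytes differentiated from a brown preadipocyte line, using the 8 empty vector libraries of a 16-library RNA-seq experiment. They comprised the 4 libraries whose titles name the empty vector and isoproterenol, and the 4 that name the empty vector and control, paired by replicate numbers 3, 4, 5 and 6. The line, wt1-SAM, is a single mouse line that carries a CRISPR activation system, and in these 8 libraries the transfected plasmid (250 ng, day 4 of differentiation) carried no guide. Both groups had been differentiated with rosiglitazone, T3, dexamethasone, insulin, indomethacin and IBMX, were kept on 0.5 µM rosiglitazone and were harvested on day 7. They differed in 1 µM isoproterenol, an agonist of all β-adrenergic receptors, for the last 24 h. The labels do not say whether the replicate numbers were separate cultures, so p-values measure the spread between these samples, which may be technical.

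In brown fat, noradrenaline from sympathetic nerves binds β-adrenergic receptors, which through Gs and adenylyl cyclase raise cAMP and activate protein kinase A. The kinase sets free fatty acids from lipid droplets within minutes, and through CREB and other factors induces *Ucp1*, whose protein lets protons leak back into the mitochondrial matrix and so turns fuel into heat. Phosphodiesterases break cAMP down and end the signal, and a sustained stimulus also changes the genes of the signalling pathway itself.

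Total estimated counts lay between 9053521 and 16546187 per library. A ribosomal RNA gene, *CT010467.1*, took from 19.7% to 47.3% of them in control libraries and from 22.1% to 51.8% in the stimulated libraries. It was higher with isoproterenol in 4 of 4 pairs (exact two-sided sign-flip test on the log odds, p = 0.125, the smallest that 4 pairs allow). Levels are given as CPM, depth-scaled counts over the TMM-scaled library size, and 3 counts, the limit that a count of 0 allows, amounted to between 0.148 and 0.350 CPM. The identity of the cells was checked on markers. Genes of fat cells were high in controls, with *Fabp4* (a fatty acid carrier) at 14429.6 ± 3154 CPM and *Adipoq* (adiponectin) at 693 ± 171 CPM (SD, n = 4). Of the markers of brown fat, *Elovl3* was at 211 CPM and *Ebf2* at 15.6 CPM, whereas *Cidea* was at 1.45, *Prdm16* at 0.986, *Cox8b* at 0.818, *Cox7a1* at 0.523, *Ucp1* at 0.313 and *Zic1* at 0.0380 CPM, and *Dio2* had 0 counts in all 8 libraries. *Ppargc1a*, also listed as a marker of brown fat, was higher than *Ebf2* in controls, with its values given below. Markers of fat cells were thus present. Of the brown fat markers, all but *Elovl3*, *Ppargc1a* and *Ebf2* were at or below 1.45 CPM in controls. Defining leukocyte markers (*Ptprc*, *Adgre1*, *Itgam*, *Csf1r*, *Cd3e*) and endothelial markers (*Cdh5*, *Kdr*, *Tek*) were each at or below 0.231 CPM in both groups. Other leukocyte markers were not that low: *Cd68* and *Cd14*, at 9.49 and 2.20 CPM in controls, were called higher, and the summed level of all 19 markers lay between 12.2 and 17.0 CPM in controls and between 18.9 and 28.1 CPM with isoproterenol, without overlap. Their part in the results was not tested.

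Isoproterenol changed a limited set of genes. Counts were present for 30964 of 54347 genes, and 12241 were tested, of which 444 (3.63%) were called, 238 higher (1.94%) and 206 lower (1.68%). A call required an adjusted p under 0.05 (edgeR, quasi-likelihood F test, Benjamini-Hochberg) together with a log2 fold change beyond 0.5 in either direction. The median log2 fold change was 0.93 among the genes called higher, −0.73 among those called lower and 0.00 over all genes tested. A rise by more than 1 on the log2 scale was seen in 102 called genes and a fall by more than 1 in 53. Of the 444, 441 moved the same way in all 4 pairs, as did 28.6% of all tested genes, and in 188 the groups did not overlap, as in 4.18% of all tested genes.

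The number of calls depended on the pairing. Without the replicate block 44 genes were called, all 44 of them among the 444. Leaving out a replicate number gave 415 (without 3), 255 (without 4), 398 (without 5) and 294 called genes (without 6). With the ribosomal RNA share added to the blocked fit 286 genes were called, 222 of them among the 444, while without the ribosomal RNA genes 459 were called. Of 144 called genes chosen for closer description, 25 were called without the block, 88 with the ribosomal RNA share in the fit and 49 when tested against the bound of 0.5 itself, and none changed sign. Those described here that were called without the block were *Ucp1*, *Prl2c3*, *Prl2c2*, *Krt13*, *Thbd*, *Adcy3*, *Pde4d*, *Nr4a1*, *Il6*, *Clcf1*, *Socs2*, *Lipa*, *Ghr*, *Insig1*, *Car5b*, *St3gal6*, *Apcdd1*, *AC160336.1*, *Gm20186*, *Gm12840*, *Gm9973*, *Gm48942*, *Gm45551* and *Gm29408*. With that share in the fit the calls of *Tmprss11f*, *Tsc22d1*, *Pdk4*, *Klf4*, *Cebpa*, *Plin1*, *Cidec*, *Lipe*, *Gpd1*, *Thrsp*, *Mvd*, *Dhcr7*, *Eci1*, *Rpl5*, *Fgf21*, *Osmr*, *Cish*, *Ptges*, *Adora1*, *Tshr*, *Bcat1* and the 5 genes called lower of branched-chain amino acid breakdown were lost, among others.

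**Figure D1:**
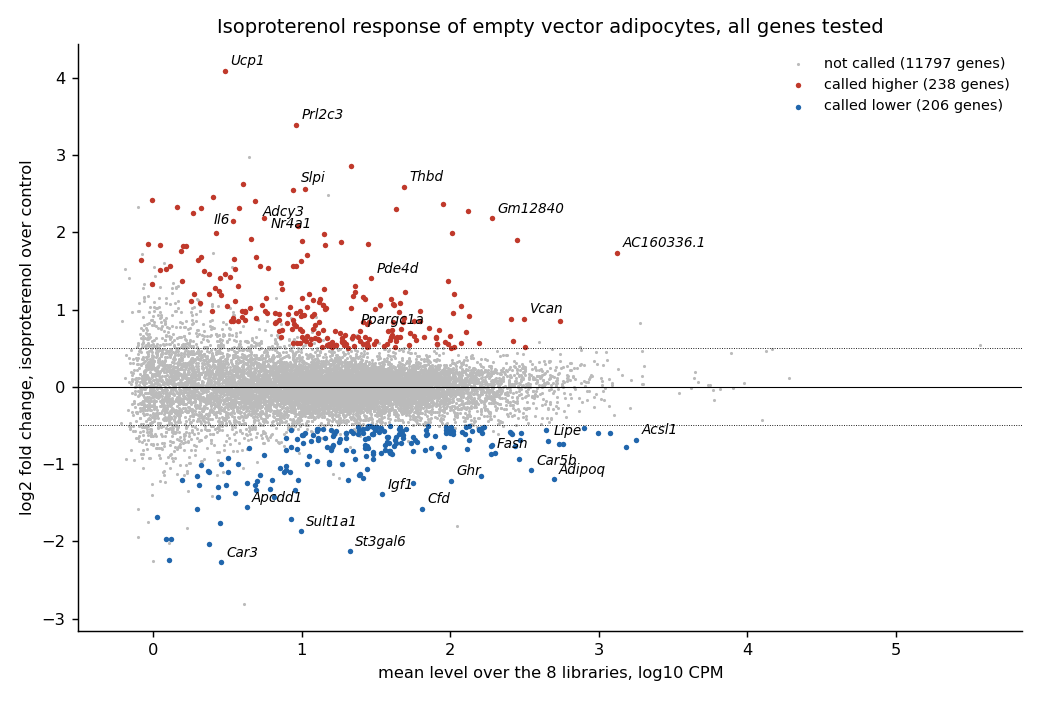
Each point is 1 of the 12241 tested genes, with the mean level over the 8 libraries (log10 CPM) on the horizontal axis and the log2 fold change of isoproterenol over control on the vertical axis; dotted lines mark the bound of 0.5. Red points are the 238 genes called higher and blue points the 206 called lower, which reach up to *Acsl1*.

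Because every pair entered the fit, the calls were also read in a pair that had not been used. Among genes called higher from 3 pairs, 213 of 231 were higher in the omitted replicate 3, 135 of 136 in replicate 4, 194 of 208 in replicate 5 and 150 of 153 in replicate 6. For genes called lower these numbers were 173 of 181, 113 of 119, 182 of 188 and 138 of 140. Over all tested genes the sign was the same in between 59.8% (replicate 5) and 66.7% (replicate 4). The median log2 ratio of the omitted pair lay between 0.75 and 0.98 for genes called higher and between −0.85 and −0.54 for genes called lower.

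**Figure D2:**
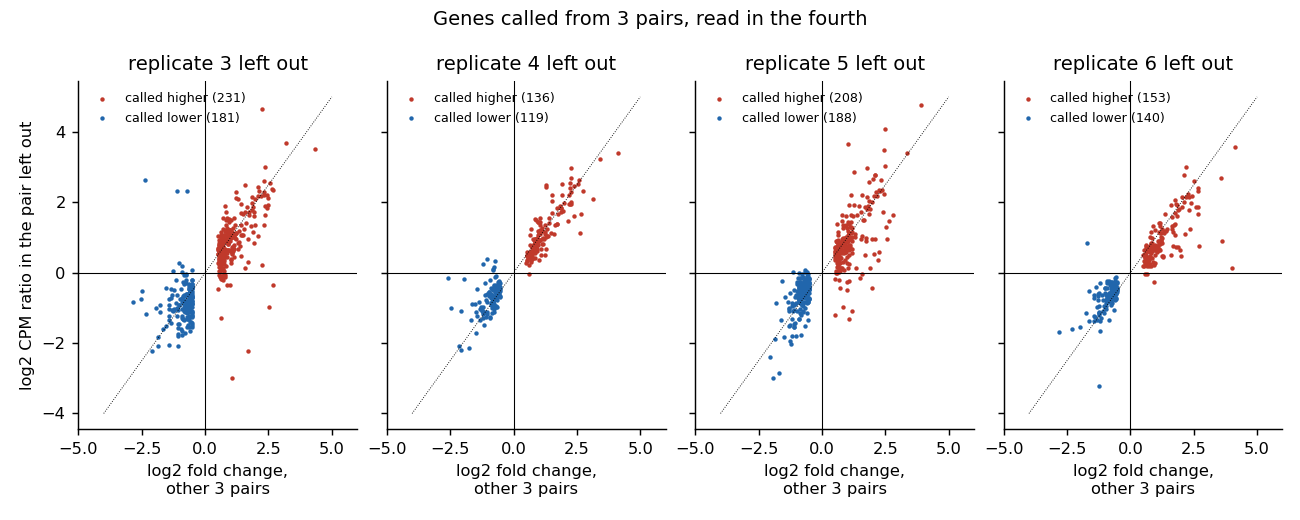
Each panel omits 1 replicate number; the horizontal axis is the log2 fold change fitted to the other 3 pairs, the vertical axis the log2 CPM ratio of isoproterenol over control in the omitted pair, and the dotted line marks equality. Red points were called higher and blue points called lower from the other pairs, and in each panel between 92.2% and 99.3% of either colour had the same sign in the omitted pair.

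*Ucp1* (ENSMUSG00000031710.4, chromosome 8:83290352–83298452) showed the largest rise of all called genes. It was at 0.643, 0.234, 0 and 0.374 CPM in control replicates 3 to 6 and at 8.99, 3.91, 4.00 and 6.13 CPM after isoproterenol. All stimulated libraries lay above all controls, and the 4 controls together held 20 counts. The log2 fold change was 4.10 (SE 0.33, edgeR adjusted p = 0.000165), and it stayed between 3.90 and 4.35 when a replicate number was left out. Its stimulated mean of 5.76 CPM remained below the control level of *Elovl3*, an elongase of brown fat, which went from 211 ± 73.1 to 239 ± 63.8 CPM (SD, n = 4 each) and was not called (0.20, SE 0.08, edgeR adjusted p = 0.210).

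All gene lists were chosen with earlier results of these data known, so the shares given for them are descriptions and support nothing by themselves. Of the thermogenic genes, 3 of 13 tested were called higher (23.1% against 1.94% of all genes), 0 were called lower, and the median log2 fold change was 0.11. *Ppargc1a*, the coactivator of mitochondrial biogenesis, was at 31.04, 30.98, 46.3 and 27.5 CPM in controls and 54.4, 41.1, 78.6 and 42.1 CPM with isoproterenol. It rose in every pair, although the groups overlapped, by 0.65 (SE 0.09, edgeR adjusted p = 0.00388) on the log2 scale. *Pdk4*, which restrains pyruvate oxidation, rose by 0.55 (SE 0.08, edgeR adjusted p = 0.00524), and its estimate of 0.48 without replicate 3 lay within the bound. Among the members that did not pass, the estimates were 0.98 for *Cidea* (SE 0.29, edgeR adjusted p = 0.0921), 0.58 for *Zfp516* (adjusted p = 0.116) and −0.49 for *Ebf2* (adjusted p = 0.0538). *Zfp516* was called without replicate 3 (0.77) and with the ribosomal RNA share added to the fit (0.93).

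Genes listed as early targets of cAMP and CREB gave, at 24 h, 5 higher and 0 lower of 20 tested against 1.94% of all genes for a rise (median 0.19). *Nr4a1* (ENSMUSG00000023034.7, chromosome 15:101254269–101274795), an orphan nuclear receptor induced within minutes of a cAMP rise, was at 1.23, 1.82, 2.57 and 2.34 CPM in controls and at 7.38, 7.52, 13.1 and 8.41 CPM with isoproterenol. The groups were apart in every library, and the log2 fold change was 2.19 (SE 0.18, edgeR adjusted p = 0.000187). *Fosl1*, an AP-1 subunit, rose by 1.23 (SE 0.16, edgeR adjusted p = 0.00218), and *Sik1*, a kinase that restrains CREB coactivators, by 1.03 (SE 0.13, edgeR adjusted p = 0.00214), both without overlap between the groups. *Klf4* (0.87) and *Ier3* (0.69) also rose, the latter with an adjusted p of 0.0594 without replicate 4. The classical early genes were not called: estimates on the log2 scale were −0.20 for *Fos* (adjusted p = 0.640), −0.33 for *Egr1* (0.298), 0.24 for *Junb* (0.545) and 0.35 for *Crem* (0.275) in edgeR's test. *Nr4a2* and *Nr4a3* had too few counts to be tested.

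Promoters of some genes described here are shown because CREB binds the palindrome TGACGTCA and its shorter core TGACG, which reads CGTCA on the other strand. Sequences from 250 bases before to 50 bases after the RefSeq start (GRCm38.p6, all printed 5′ to 3′ on the strand of the gene) were searched on both strands, and in the lines that follow capitals mark each TGACG or CGTCA. The first 4 genes were called higher and *Adipoq* was called lower. They are examples: of the called early targets named above, only *Nr4a1* is shown. *Nr4a1* (chr15:101266596-101266895, plus strand, an internal start of the gene) held 4 matches, *Ucp1* (chr8:83290098-83290397, plus strand), *Il6* (chr5:30012864-30013163, plus strand) and *Ppargc1a* (chr5:51567676-51567975, minus strand) held 1 each, and *Adipoq* (chr16:23146286-23146585, plus strand) held 0.
Nr4a1: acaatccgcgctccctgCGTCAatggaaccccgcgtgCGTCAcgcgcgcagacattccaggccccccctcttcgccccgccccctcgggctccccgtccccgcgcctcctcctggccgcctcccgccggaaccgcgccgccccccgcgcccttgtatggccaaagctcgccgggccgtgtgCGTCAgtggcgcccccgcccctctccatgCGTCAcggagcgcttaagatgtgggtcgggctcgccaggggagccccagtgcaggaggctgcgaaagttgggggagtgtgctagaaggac
Ucp1: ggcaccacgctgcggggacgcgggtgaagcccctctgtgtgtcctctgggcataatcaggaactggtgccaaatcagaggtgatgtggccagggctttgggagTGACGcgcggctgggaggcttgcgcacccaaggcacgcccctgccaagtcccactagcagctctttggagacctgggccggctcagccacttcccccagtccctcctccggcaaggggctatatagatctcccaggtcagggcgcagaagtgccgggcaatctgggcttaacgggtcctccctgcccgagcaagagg
Il6: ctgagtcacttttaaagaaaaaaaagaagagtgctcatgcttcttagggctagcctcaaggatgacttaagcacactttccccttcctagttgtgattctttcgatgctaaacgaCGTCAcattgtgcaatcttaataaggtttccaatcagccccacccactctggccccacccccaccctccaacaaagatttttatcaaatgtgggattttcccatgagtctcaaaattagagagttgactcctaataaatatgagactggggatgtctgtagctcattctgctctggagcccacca
Ppargc1a: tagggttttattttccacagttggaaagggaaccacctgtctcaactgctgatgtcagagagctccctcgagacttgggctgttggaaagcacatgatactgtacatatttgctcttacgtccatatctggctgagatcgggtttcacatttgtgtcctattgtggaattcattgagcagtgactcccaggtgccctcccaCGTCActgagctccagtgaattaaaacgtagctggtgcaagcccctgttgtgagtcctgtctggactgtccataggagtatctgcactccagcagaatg
Adipoq: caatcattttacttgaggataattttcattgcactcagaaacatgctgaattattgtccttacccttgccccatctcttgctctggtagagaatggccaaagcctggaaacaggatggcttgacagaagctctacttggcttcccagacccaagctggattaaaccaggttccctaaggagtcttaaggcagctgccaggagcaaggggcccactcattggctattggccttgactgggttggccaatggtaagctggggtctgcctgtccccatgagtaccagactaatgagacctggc

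The first bases of the 4 matches of *Nr4a1* lay 233, 213, 69 and 40 bases before the start, that of *Ucp1* 147 bases, that of *Il6* 135 bases and that of *Ppargc1a* 49 bases before it. Such matches were common. Of 12241 tested genes 9190 had a promoter in the table, and TGACG or CGTCA occurred in 24.6% of 224 promoters of genes called higher, 17.6% of 233 promoters of genes called lower, 32.0% of 11707 promoters of all tested genes and 20.8% of all promoters in the table. The palindrome TGACGTCA, whose matches are counted in these numbers too, occurred in 3 promoters of genes called higher (1.34%), in 1 of those called lower (0.429%), in 3.16% of those of all tested genes and in 1.79% of all promoters. Both called sets were poorer in CpG than the tested genes at large, with medians of 11 and 13 CpG dinucleotides per promoter against 21. Among promoters with fewer than 21 CpG, TGACG or CGTCA occurred in 20.1% of those called higher, 13.7% of those called lower and 24.9% of those not called. A match is a description of the letters in this window.

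Within the signalling pathway, 4 enzymes that make or break down cAMP rose. *Adcy3* (ENSMUSG00000020654.15, chromosome 12:4133103–4213525), an adenylyl cyclase, was at 1.88, 1.58, 1.28 and 1.12 CPM in controls and at 8.76, 5.39, 8.69 and 10.1 CPM with isoproterenol. Every stimulated library exceeded every control, with a log2 fold change of 2.40 (SE 0.24, edgeR adjusted p = 0.000494). *Pde4d*, a cAMP-specific phosphodiesterase, went from 17.5, 12.9, 12.7 and 20.8 CPM to 37.2, 34.9, 48.8 and 49.1 CPM. These groups were likewise apart, with a log2 fold change of 1.40 (SE 0.13, edgeR adjusted p = 0.000378). *Pde4b*, of the same family, rose by 1.08 (SE 0.11, edgeR adjusted p = 0.000506) in 4 of 4 pairs with overlapping groups. *Pde10a*, which degrades cAMP and cGMP, rose by 2.32 (SE 0.29, edgeR adjusted p = 0.00208) from a mean of 0.692 CPM. These 4 were the called members of the 27 tested genes of the cAMP machinery (14.8% against 1.94% of all genes for a rise), and 0 were called lower. *Adcy6*, the cyclase with the highest CPM of the list, was estimated at −0.42 on the log2 scale (adjusted p = 0.0706), and *Prkaca*, a catalytic subunit of protein kinase A, at −0.25 (0.128).

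The β-adrenergic receptor genes *Adrb1* and *Adrb3* had too few counts to be tested, at 0.0919 and 0.0427 CPM per kb of exon in controls. None of the 8 tested receptors, receptor kinases and arrestins was called, which with 3.63% of all genes called says little about so short a list, and the values nearest to the threshold were *Arrb1* at 0.37 (adjusted p = 0.0726) and *Adra1d* at −0.83 (0.0967). *Ramp3*, a partner protein of receptors of the calcitonin family, rose from 0.425 ± 0.110 to 2.46 ± 1.45 CPM (SD, n = 4 each), with a log2 fold change of 2.34 (SE 0.34, edgeR adjusted p = 0.00445), and *Sctr*, the secretin receptor, fell from 2.14 ± 1.08 to 0.432 ± 0.336 CPM (SD, n = 4 each), with a log2 fold change of −2.25 (SE 0.44, edgeR adjusted p = 0.0173). The call of *Sctr* was lost without replicate 4 (adjusted p 0.0691), 5 (0.0680) or 6 (0.0958).

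**Figure D3:**
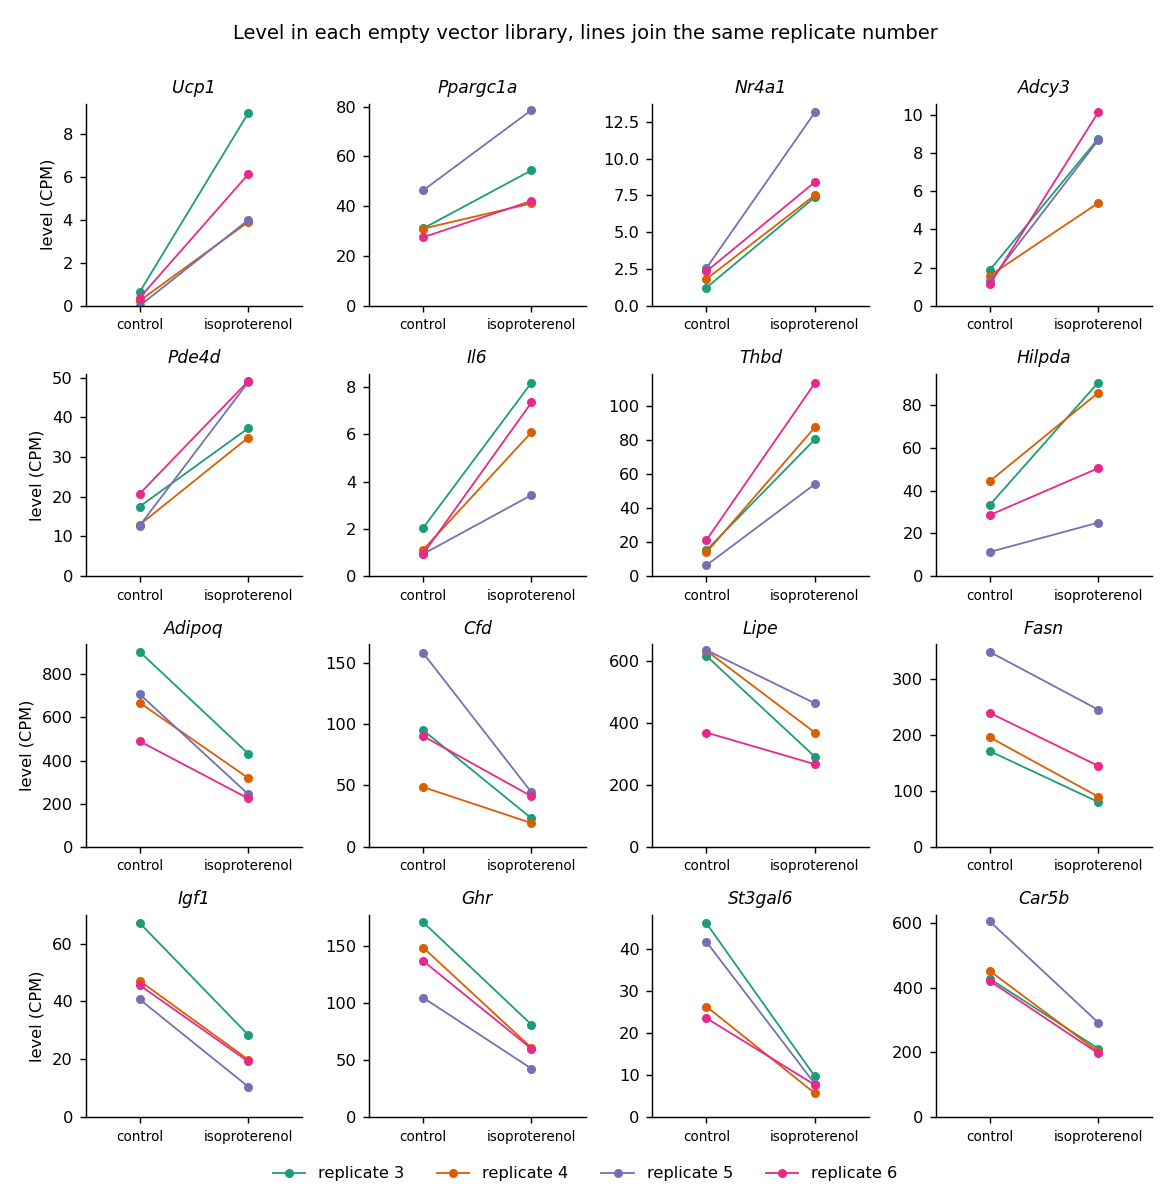
Levels (CPM, linear axes from 0) of 16 genes in the 8 libraries; each line joins the control and the isoproterenol library of 1 replicate number. All lines rise in *Ucp1*, *Ppargc1a*, *Nr4a1*, *Adcy3*, *Pde4d*, *Il6*, *Thbd* and *Hilpda* and fall in *Adipoq*, *Cfd*, *Lipe*, *Fasn*, *Igf1*, *Ghr*, *St3gal6* and *Car5b*, while replicates differ in level, as in *Hilpda* and *Fasn*.

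Some genes that define the fat cell were lower. Of 18 tested genes of adipocyte identity, 6 were called lower (33.3% against 1.68% of all genes), 0 higher and 15 had an estimate below 0, with a median of −0.41 against 0.00 over all genes. *Adipoq* (ENSMUSG00000022878.5, chromosome 16:23146536–23158028), which encodes the hormone adiponectin, was at 906, 669, 708 and 489 CPM in controls and 433, 319, 244 and 224 CPM with isoproterenol. Each stimulated library lay below every control, with a log2 fold change of −1.20 (SE 0.10, edgeR adjusted p = 0.000187). *Cfd*, which encodes adipsin, went from 95.3, 48.7, 158 and 90.4 CPM to 23.1, 19.2, 44.4 and 41.1 CPM. Its groups did not overlap either, and the log2 fold change was −1.58 (SE 0.14, edgeR adjusted p = 0.000311). *Retn* (resistin) fell by 0.72 (SE 0.11, edgeR adjusted p = 0.00507) on the log2 scale, and *Cebpa*, a factor that keeps the adipocyte state, fell by 0.76 (SE 0.17, edgeR adjusted p = 0.0284). The master regulator *Pparg* was not called, at 123 ± 8.65 to 115 ± 13.6 CPM (SD, n = 4 each) and −0.09 (SE 0.07, edgeR adjusted p = 0.520), and neither were *Fabp4* (−0.43, adjusted p = 0.124) and *Lpl* (−0.08, 0.758). Without replicate 3 *Fabp4* was called at −0.50. Calls of the list that were lost on leaving out a number were as follows: replicate 3 for *Plin1* (log2 fold change −0.41), and replicate 4 for *Cebpa* (adjusted p 0.139), *Plin1* (adjusted p 0.155) and *Cidec* (adjusted p 0.0648), and replicate 6 for *Plin1* (adjusted p 0.0756).

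Enzymes of lipolysis and coat proteins of the lipid droplet gave 1 higher and 7 lower of 20 tested (40.0% called against 3.63% of all genes, median −0.38). *Pnpla2*, which encodes the triglyceride lipase ATGL, was at 671, 686, 999 and 487 CPM in controls and 366, 351, 688 and 329.6 CPM with isoproterenol. It was lower in every pair, replicate 5 being the highest of both groups, with a log2 fold change of −0.74 (SE 0.10, edgeR adjusted p = 0.00289). *Lipe*, the hormone-sensitive lipase, went from 617, 633, 635 and 369 CPM to 290.5, 369, 463 and 266 CPM. The control of replicate 6 lay within the stimulated range, and the log2 fold change was −0.70 (SE 0.11, edgeR adjusted p = 0.00719). *G0s2*, the inhibitor of ATGL, fell together with the lipases (−0.77, SE 0.11, edgeR adjusted p = 0.00424), as did the glycerol channel *Aqp7* (−0.84), *Gpd1*, which makes glycerol 3-phosphate (−0.78), and the droplet proteins *Plin1* (−0.60) and *Cidec* (−0.60). *Hilpda*, another inhibitor of ATGL, was the member that rose, from 33.3, 44.5, 11.3 and 28.6 CPM to 90.6, 85.8, 25.0 and 50.5 CPM. It was higher in 4 of 4 pairs with overlapping groups, by 1.09 (SE 0.11, edgeR adjusted p = 0.000565). Leaving out a number removed 2 further calls, namely replicate 4 for *Lipe* (adjusted p 0.0612) and *Gpd1* (adjusted p 0.161), and replicate 6 for *Gpd1* (adjusted p 0.0713).

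Uptake and activation of fatty acids gave 2 higher and 4 lower of 15 tested (40.0% called against 3.63% of all genes, median −0.23). *Acsl1*, the main acyl-CoA synthetase of fat cells, showed the largest fall in CPM of all called genes, from 2572, 2422, 2189.5 and 1670.0 CPM to 1426, 1308, 1662 and 1096 CPM. All 4 stimulated libraries were below all controls, with a log2 fold change of −0.69 (SE 0.11, edgeR adjusted p = 0.00745). *Slc27a1*, a fatty acid transporter, fell by 1.13 (SE 0.16, edgeR adjusted p = 0.00371), *Cav1*, the scaffold of caveolae, fell by 0.69 (SE 0.07, edgeR adjusted p = 0.000814) and *Fabp5* fell by 0.60. *Acsl4*, a synthetase with a preference for arachidonic acid, rose by 0.77 (SE 0.11, edgeR adjusted p = 0.00336), and *Lrp1*, a lipoprotein receptor, by 0.61. Calls not kept on leaving out a number were found for replicate 4 for *Acsl1* (adjusted p 0.0903) and *Fabp5* (adjusted p 0.0541), and replicate 5 for *Lrp1* (log2 fold change 0.49), and replicate 6 for *Acsl1* (adjusted p 0.0525) and *Lrp1* (adjusted p 0.104).

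Of 26 tested genes of fatty acid and triglyceride synthesis, 5 were called lower (19.2% against 1.68% of all genes), 0 higher and 23 had an estimate below 0 (median −0.27). *Fasn*, fatty acid synthase, was at 171, 195, 348 and 239 CPM in controls and 79.8, 89.4, 245 and 144 CPM with isoproterenol. The fall was seen in every pair, with replicate 5 high in both groups, and amounted to a log2 fold change of −0.86 (SE 0.11, edgeR adjusted p = 0.00217). *Insig1*, which holds the sterol-regulated transcription factors in the endoplasmic reticulum and is itself their target, went from 401, 401, 366 and 358 CPM to 196, 181, 237 and 186 CPM. The groups were separate, and the log2 fold change was −0.94 (SE 0.10, edgeR adjusted p = 0.000565). *Thrsp* (−0.93), the desaturase *Fads2* (−0.82) and the citrate carrier *Slc25a1* (−0.60) were the other called members. Of 24 tested genes of cholesterol synthesis 6 were called lower (25.0% against 1.68% of all genes) and 0 higher (median −0.20), namely *Insig1*, *Acat2* (−0.81, SE 0.08, edgeR adjusted p = 0.000439), *Dhcr7* (−0.72), *Mvd* (−0.71), *Nsdhl* (−0.65) and *Cyp51* (−0.59). On leaving out a number, calls were lost with replicate 3 for *Mvd* (adjusted p 0.0513), and replicate 4 for *Dhcr7* (adjusted p 0.0711) and *Mvd* (adjusted p 0.225), and replicate 6 for *Dhcr7* (adjusted p 0.0518) and *Mvd* (adjusted p 0.126).

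Genes of mitochondrial metabolism were read in several lists. None of 82 tested nuclear genes of the respiratory chain and ATP synthase was called (against 3.63% of all genes), 73 had an estimate below 0 and the median was −0.18, whereas the median of the 13 genes of the mitochondrial genome was −0.01. The summed level of the nuclear list ranged from 15952 to 24146 CPM in controls and from 14859 to 20860.3 CPM in stimulated libraries, which overlapped. Of 26 genes of fatty acid oxidation 2 were called lower, *Hadh* (−0.60, SE 0.07, edgeR adjusted p = 0.00177) and *Eci1* (−0.52), a share of 7.69% against 3.63% of all genes, with 22 of the 26 estimates below 0 and a median of −0.22. The call of *Eci1* was lost on leaving out any of the 4 numbers, with adjusted p of 0.0691, 0.0950 and 0.0916 without replicates 4, 5 and 6 and an estimate of −0.35 without replicate 3. Of 23 genes that break down branched-chain amino acids, a list compiled after the values had been seen, 5 were called lower, 1 was called higher (26.1% against 3.63% of all genes) and 22 had an estimate below 0 (median −0.24), among them both parts of the decarboxylase of branched-chain keto acids, *Bckdha* (−0.65, SE 0.10, edgeR adjusted p = 0.00480) and *Bckdhb* (−0.53). *Bcat1*, the cytosolic transaminase, rose by 0.95 (SE 0.16, edgeR adjusted p = 0.00764). Within the list, calls were lost on omitting replicate 3 for *Bckdhb* (log2 fold change −0.45), *Mccc2* (log2 fold change −0.38), *Aldh6a1* (log2 fold change −0.49) and *Hsd17b10* (log2 fold change −0.47), and replicate 4 for *Mccc2* (adjusted p 0.140), and replicate 5 for *Hsd17b10* (log2 fold change −0.43), and replicate 6 for *Bckdhb* (adjusted p 0.0734), *Mccc2* (adjusted p 0.102), *Aldh6a1* (adjusted p 0.0518) and *Hsd17b10* (adjusted p 0.0515). *Car5b*, a mitochondrial carbonic anhydrase, was at 428, 452, 606 and 421 CPM in controls and 212, 202, 292 and 197 CPM with isoproterenol. The groups were apart, with a log2 fold change of −1.08 (SE 0.08, edgeR adjusted p = 7.34e-05). Cytosolic ribosomal protein genes lay above 0 in 73 of 79 cases, with a median of 0.15 and 1 call, *Rpl5* (0.56, SE 0.09, edgeR adjusted p = 0.00764), which was lost without replicate 3 (0.49) or replicate 4 (adjusted p 0.0691). The summed level of that list overlapped, from 26185.7 to 43148 CPM in controls and from 26501.8 to 48239.9 CPM with isoproterenol.

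**Figure D4:**
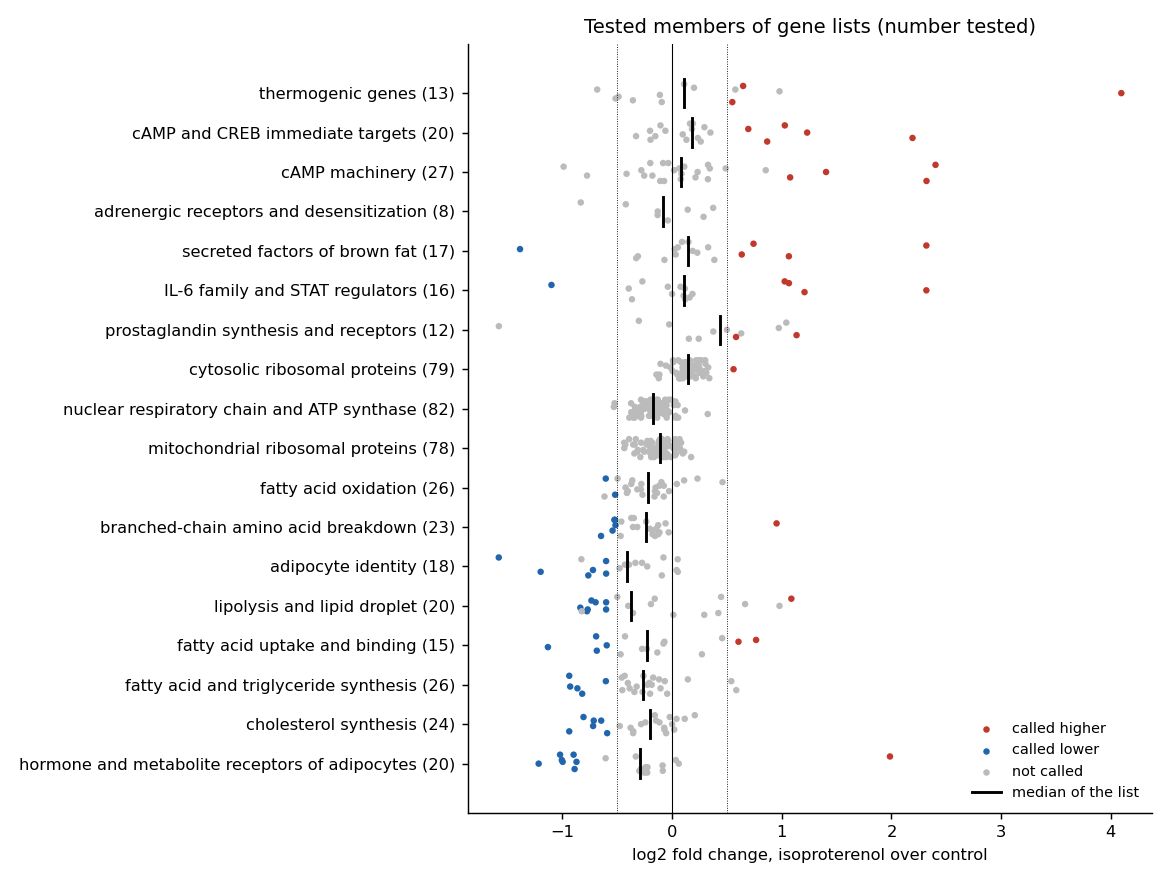
Each point is the log2 fold change (isoproterenol over control) of 1 tested member of the list named at the left, with the number tested in brackets; red and blue points were called higher and lower, grey points were not called, black bars are medians and dotted lines mark the bound of 0.5. Points of the lipid lists lie mostly left of 0, with medians from −0.41 for adipocyte identity to −0.20 for cholesterol synthesis, whereas in the upper rows a few members stand far to the right of the others.

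Secreted factors moved in both directions. *Il6*, interleukin 6, was at 2.04, 1.11, 0.934 and 0.935 CPM in controls and 8.18, 6.09, 3.43 and 7.35 CPM with isoproterenol. Every stimulated library was above every control, replicate 3 being the highest control, and the log2 fold change was 2.32 (SE 0.23, edgeR adjusted p = 0.000491). Of 16 tested genes of the IL-6 family and its regulators, a list compiled after the values had been seen, 4 were called higher and 1 lower (31.2% against 3.63% of all genes). *Clcf1*, a cytokine of the family, rose by 1.21 (SE 0.12, edgeR adjusted p = 0.000506) and the feedback inhibitor *Socs2* by 1.03 (SE 0.11, edgeR adjusted p = 0.000611), both without overlap, *Osmr*, the receptor of oncostatin M, rose by 1.07, and *Cish*, another feedback inhibitor, fell (−1.0999). Of 17 tested secreted factors of brown fat 5 were called (29.4% against 3.63% of all genes), with 4 of them higher, *Il6*, *Fgf21* (0.64, SE 0.10, edgeR adjusted p = 0.00548), *Metrnl* (1.06) and *Fstl1* (0.74), and 1 lower. The latter was *Igf1*, insulin-like growth factor 1, at 67.2, 47.1, 40.7 and 45.6 CPM in controls and 28.5, 19.9, 10.5 and 19.2 CPM with isoproterenol. Its groups did not overlap, and the log2 fold change was −1.39 (SE 0.12, edgeR adjusted p = 0.000293). *Ptgs2*, the inducible cyclooxygenase, rose from 16.9 ± 4.65 to 36.8 ± 9.39 CPM (SD, n = 4 each), by 1.13 (SE 0.11, edgeR adjusted p = 0.000389), and *Ptges*, a prostaglandin E synthase, by 0.58. *Vegfa* (0.19), *Nrg4* (0.09), *Gdf15* (0.02) and *Angptl4* (−0.07) were not called, with adjusted p from 0.199 to 0.927. Omitting replicate 4 removed the calls of *Osmr* (adjusted p 0.0555), *Cish* (adjusted p 0.178) and *Ptges* (adjusted p 0.140). Omitting replicate 6 removed those of *Cish* (adjusted p 0.124), *Metrnl* (adjusted p 0.0518) and *Ptges* (adjusted p 0.0740).

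Receptors for other hormones and metabolites of the fat cell gave 1 higher and 7 lower of 20 tested, 40.0% against 3.63% of all genes, in a list compiled after the values had been seen. *Ghr*, the growth hormone receptor, was at 171, 149, 105 and 137 CPM in controls and 81.0, 60.7, 42.4 and 59.8 CPM with isoproterenol. The groups were far apart in every pair, with a log2 fold change of −1.22 (SE 0.08, edgeR adjusted p = 3.16e-05). The Gi-coupled receptors that fell were *Adora1* for adenosine (−1.01, SE 0.15, edgeR adjusted p = 0.00480), *Hcar1* for lactate (−0.87, SE 0.09, edgeR adjusted p = 0.000491) and *Ffar2* for short-chain fatty acids (−0.89). The Gs-coupled receptors that fell were *Mc2r* for ACTH (−0.90, SE 0.12, edgeR adjusted p = 0.00218), *Mc5r* for melanocortins (−1.02) and *Tshr* for thyrotropin (−0.998). *Vdr*, the vitamin D receptor, was the member that rose, from 3.70, 2.93, 3.15 and 15.7 CPM to 16.8, 14.2, 19.8 and 37.6 CPM. It rose in 4 of 4 pairs, with control replicate 6 within the stimulated range, by 1.99 (SE 0.20, edgeR adjusted p = 0.000565). The call of *Tshr* was lost without replicate 4 (adjusted p 0.140), 5 (0.0554) or 6 (0.0639).

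Of the other genes with large rises, *Thbd* (ENSMUSG00000074743.4, chromosome 2:148404466–148408188), which encodes the anticoagulant receptor thrombomodulin, was among the most abundant. It was at 15.3, 14.0, 6.42 and 21.3 CPM in controls and 80.6, 87.7, 54.2 and 114 CPM with isoproterenol. No library overlapped, and the log2 fold change was 2.59 (SE 0.12, edgeR adjusted p = 2.94e-06). *Slpi*, a secreted protease inhibitor, went from 4.61, 2.99, 0.934 and 1.31 CPM to 28.0, 24.3, 2.86 and 5.23 CPM. Levels depended on the replicate number, high in 3 and 4 and low in 5 and 6, but rose in each pair (2.56, SE 0.21, edgeR adjusted p = 0.000179). The prolactin-family genes *Prl2c3* (1.58 ± 0.623 to 16.7 ± 7.84 CPM, SD, n = 4 each, log2 fold change 3.39, SE 0.19, edgeR adjusted p = 1.46e-05) and *Prl2c2* (2.56) rose as well, but 909 of the 1119 31-base words of *Prl2c2* transcripts also occur in *Prl2c3*, so their counts are not independent. *Krt13*, a keratin, rose from 1.097 ± 0.525 to 6.91 ± 1.24 CPM (SD, n = 4 each), with a log2 fold change of 2.62 (SE 0.24, edgeR adjusted p = 0.000330). The protease gene *Tmprss11f* rose by 2.42 from 0.314 CPM, with overlapping groups. Its stimulated replicate 6 was at 3.94 CPM and the others at 0.693 to 1.15 CPM. The gene was called without replicate 3, 4 or 5 and had no call without replicate 6. Among called coding genes the largest rises in CPM were those of *Bzw1*, a regulator of translation initiation (391.95 ± 57.0 to 707 ± 76.7 CPM, SD, n = 4 each, log2 fold change 0.85, SE 0.08, edgeR adjusted p = 0.000394), *Esd* (0.87), the matrix proteoglycan *Vcan* (0.88) and *Tsc22d1* (0.59). *Tsc22d1* was not called without replicate 3 (0.47) or replicate 4 (adjusted p 0.140).

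The fall of *St3gal6* (ENSMUSG00000022747.17, chromosome 16:58468125–58524243), a sialyltransferase, was among the largest. It was at 46.2, 26.4, 41.8 and 23.6 CPM in controls and 9.68, 5.64, 7.89 and 7.65 CPM with isoproterenol. The lowest control was above the highest stimulated library, with a log2 fold change of −2.12 (SE 0.13, edgeR adjusted p = 3.16e-05). Of its 5 relatives, likewise listed after the values had been seen, *St3gal4* fell by 0.55 and *St3gal1* rose, from 19.4, 22.02, 19.1 and 38.8 CPM to 39.8, 43.1, 50.1 and 87.0 CPM, by 1.13 (SE 0.09, edgeR adjusted p = 0.000179). The groups of *St3gal1* were also separate, so that members of the family moved in opposite directions. *Sult1a1*, a sulfotransferase that conjugates phenols and catecholamines, fell from 15.3 ± 7.40 to 4.34 ± 2.37 CPM (SD, n = 4 each), a log2 fold change of −1.87 (SE 0.15, edgeR adjusted p = 0.000163). *Car3*, a carbonic anhydrase of fat and muscle, fell by 2.27 (SE 0.34, edgeR adjusted p = 0.00507), with controls from 0.703 to 9.91 CPM. *Apcdd1*, an inhibitor of Wnt signals, fell by 1.56 (SE 0.18, edgeR adjusted p = 0.00112) and *Ubd*, a ubiquitin-like modifier, fell too (−1.43). The other large falls were those of *Serpina3c* (−2.04), *Gdf5* (−1.69), *Scp2-ps2* (−1.70), *H2bc24* (−1.76) and the noncoding genes *Chn1os1*, *Smkr-ps*, *4930511E03Rik* and *Sox6os*. Of these and *St3gal4*, calls were lost on omitting replicate 3 for *St3gal4* (log2 fold change −0.49) and *Sox6os* (adjusted p 0.0540), and replicate 4 for *St3gal4* (adjusted p 0.0594), *Serpina3c* (adjusted p 0.0686), *Gdf5* (adjusted p 0.0764), *H2bc24* (adjusted p 0.0806), *Chn1os1* (adjusted p 0.208), *4930511E03Rik* (adjusted p 0.0891) and *Sox6os* (adjusted p 0.0593), and replicate 5 for *Serpina3c* (adjusted p 0.0613), *Gdf5* (adjusted p 0.123), *H2bc24* (adjusted p 0.132), *Chn1os1* (adjusted p 0.127), *4930511E03Rik* (adjusted p 0.0841) and *Sox6os* (adjusted p 0.103), and replicate 6 for *Serpina3c* (adjusted p 0.104), *Gdf5* (adjusted p 0.126), *H2bc24* (adjusted p 0.0785), *Chn1os1* (adjusted p 0.0772), *Smkr-ps* (adjusted p 0.0576) and *4930511E03Rik* (adjusted p 0.0749).

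Noncoding genes were among the strongest rises. Of 221 tested lincRNA genes 18 were called (8.14%), 13 higher and 5 lower, against 3.63% of all genes. The larger of the other noncoding classes were nearer to that share or below it, with 9 of 205 TEC genes (4.39%), 5 of 148 processed transcripts (3.38%), 5 of 218 antisense genes (2.29%), 2 of 211 processed pseudogenes (0.948%) and 0 of 45 bidirectional promoter lncRNAs called. The lincRNA *AC160336.1* (ENSMUSG00000115801.1, chromosome 14:44544055–44637201) showed the largest rise in CPM of any called gene, from 828, 684, 451 and 499 CPM to 2759.7, 2165, 1645 and 1610.3 CPM. All stimulated libraries exceeded all controls, with a log2 fold change of 1.74 (SE 0.09, edgeR adjusted p = 1.09e-05). *Gm20186* (1.90), *Gm12840* (2.19), *Gm9973* (2.28), *Gm48942* (1.99) and *Gm45551* (2.30) rose by similar amounts in 4 of 4 pairs, each with an adjusted p at or below 2.97e-06 in edgeR's test. They lie on different chromosomes, apart from *Gm48942* and *AC160336.1* on chromosome 14. Their transcripts share sequence: *Gm12840* and *Gm20186* have 357 31-base words in common, *AC160336.1* has 82 with *Gm12840* and 79 with *Gm20186*, *Gm9973* and *Gm48942* have 176, and *Gm45551* has 78 with *Gm48942*. *Gm20186* and *Gm9973* share 15. In all, *AC160336.1* holds 84426 such words, *Gm9973* 4246, *Gm20186* 1044, *Gm45551* 898, *Gm48942* 806 and *Gm12840* 597. Salmon divides reads that match several transcripts between them, so these rises may not be independent and the locus of such reads is uncertain. How many counts came from shared stretches was not tested. The words of *AC160336.1* were not searched for among all tested genes, so further shared sequence may have been missed. Of the 13 lincRNA genes called higher, 6 belong to this group or share at least 20 such words with its other members. The share of 8.14% thus rests in part on related sequence. Outside the group, 5 tested genes had at least 20 such words in common with its members other than *AC160336.1*. Of these, 3 were called higher (*Gm47571*, *Gm29371*, *Gm12505*) and *Eci2* and *Zfp972* were not. *Gm29408* (ENSMUSG00000099406.1, chromosome 9:90938980–90939195), which shared no 31-base word with the other named noncoding genes compared, went from 45.4, 24.1, 21.9 and 25.3 CPM to 212, 155, 114 and 116 CPM. Its groups were apart, with a log2 fold change of 2.37 (SE 0.10, edgeR adjusted p = 2.61e-06). *Gm15551*, at which the guides of the other libraries are directed, had too few counts to be tested, with 0.965, 0.879, 0.350 and 1.22 CPM in controls and 0, 0.148, 0 and 0.379 CPM with isoproterenol. Its host *Camk2d* was not called (−0.29, SE 0.08, edgeR adjusted p = 0.0682). Neither the labels nor the methods say whether strand was used in the counting, so values of antisense genes such as *Chn1os1* and *Sox6os* are uncertain.

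Further groups were described by their counts, against 3.63% of all genes called. Of 26 antioxidant and glutathione genes 4 were called higher, among them *Gclc*, the rate-limiting enzyme of glutathione synthesis (0.89, SE 0.08, edgeR adjusted p = 0.000270), *Srxn1* (0.64), *Prdx6* (0.61) and *Nqo1* (0.75), and *Mgst3* was lower (−0.55). Of 37 genes of glycolysis and glucose uptake 3 were higher (*Pdk4*, *Ldhb*, *Eno1*) and 2 lower, *Pcx*, pyruvate carboxylase (−0.74), and *Pygb* (−0.66). Of 30 acute-phase and inflammatory genes 2 were higher (*Il6*, *Slpi*) and 4 lower, among them *Hp*, haptoglobin (−0.83), and *C3* (−0.61). Of 19 leukocyte markers, whose sums are given above, 3 were tested. *Cd68* (0.83) and *Cd14* (1.12) rose, while *Ptprc*, *Adgre1*, *Itgam* and *Csf1r* stayed at or below 0.231 CPM. The progenitor marker *Ly6a* rose by 1.06 (SE 0.16, edgeR adjusted p = 0.00464), and 10 other tested markers of that list were not called. Lysosomal *Lipa*, which cleaves lipid in lysosomes, rose by 0.71 (SE 0.09, edgeR adjusted p = 0.00183). Of 18 matrix proteases and their inhibitors 3 were called higher and 2 lower (27.8%, median 0.25). *Timp1*, an inhibitor of matrix metalloproteinases, rose by 0.81 and the protease gene *Adamts4* by 1.25, whereas *Adamts9* (−0.79) and *Adamts12* (−1.11) fell. The call of *Timp1* held on leaving out each replicate number. Calls of *Adamts4* were lost without replicate 4, 5 or 6 (adjusted p from 0.0811 to 0.211), of *Adamts9* without any number (0.0672 to 0.235) and of *Adamts12* without replicate 3, 4 or 5 (0.0506 to 0.0761). Shares of 16.7% were called among 12 smooth muscle genes (2 higher), 11.5% among 26 genes of TGF-beta and BMP signals (2 higher, 1 lower) and 10.0% among 40 SLC25 carriers (1 higher, 3 lower) while 2 of 25 collagens and matrix genes were called lower. Shares near that of all genes were called among 39 cell cycle genes (5.13%, 2 lower) and 28 interferon-stimulated genes (3.57%, 1 lower). Of 11 Krüppel-like factors 1 was called, and of 78 mitochondrial ribosomal proteins none. No gene was called among 31 genes of the unfolded protein and integrated stress response, 16 of the circadian clock and 46 of the proteasome. Of the genes of these groups, calls were lost on omitting replicate 3 for *C3* (adjusted p 0.0613), and replicate 4 for *Nqo1* (adjusted p 0.151), *Mgst3* (adjusted p 0.0775), *Ldhb* (adjusted p 0.176), *Eno1* (adjusted p 0.192), *Pcx* (adjusted p 0.145), *Pygb* (adjusted p 0.0894) and *C3* (adjusted p 0.208), and replicate 5 for *Nqo1* (adjusted p 0.0514), *Mgst3* (log2 fold change −0.42), *Ldhb* (adjusted p 0.0940) and *Eno1* (adjusted p 0.0923), and replicate 6 for *Mgst3* (adjusted p 0.0809), *Ldhb* (adjusted p 0.147), *Eno1* (adjusted p 0.140), *Pcx* (adjusted p 0.0581), *Hp* (adjusted p 0.0674), *C3* (adjusted p 0.127) and *Cd14* (adjusted p 0.0948).

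Whether the response differed in cells with guides was tested by the interaction over all 16 libraries. Of 13150 genes 0 were called with edgeR and the replicate block, 199 had an unadjusted p under 0.05, and DESeq2 called 3 (*Pde2a*, *Gm2223* and *Gm13509*), each with 0 counts in 9 to 11 of the 16 libraries. The isoproterenol effect in sgRNA cells was taken from the fit of all 16 libraries. Its filter, scaling, replicate blocks and spread thus also drew on the empty vector libraries, and both arms carry the same replicate numbers. It had the same sign for 236 of the 238 genes called higher and 203 of the 206 called lower, against 76.9% of all tested genes. There 180 and 138 of them were called, of 490 called with the same sign among all 12241 tested. The agreement is therefore not an independent replication. The median log2 fold changes of the called genes were 0.93 and −0.73 in empty vector cells and 0.79 and −0.61 in sgRNA cells.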

How the data were processed

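Paired-end RNA-seq libraries of 4 groups were deposited as a table of estimated counts per gene, which the authors made with salmon after bcl2fastq and cutadapt (versions not given in the sources used here) and which holds whole numbers. Of 54347 gene identifiers 54094 matched GENCODE M21 (GRCm38). Groups came from the sample titles. The 8 empty vector libraries were fitted with edgeR 4.0.16 (R 4.3.3): filterByExpr with a minimum count of 10 and a total of 15, TMM factors, and a quasi-likelihood test of isoproterenol blocked by replicate number. The pairing was checked on deviations from group means, which correlated within each number (Pearson r 0.27, 0.57, 0.52 and 0.63 for replicates 3 to 6). Between different numbers, r was 0.52 for control 3 with isoproterenol 4 and lay from −0.45 to 0.05 for the others. SE was the size of the log2 fold change divided by the root of F. Calls needed an adjusted p (Benjamini-Hochberg) below 0.05 and a log2 fold change beyond 0.5 in either direction. The fit was tested on data simulated from its own levels and spread. There 90 of 100 genes changed by a log2 of 1 and 98 of 99 changed by 1.5 were called, with 16 false calls among 11958 genes. Genes with low fitted counts were not among those changed, so these shares do not cover them. Alternatives included DESeq2 1.42.0, other scalings and filters, and each replicate number left out. The 3-count limits cover counting error only. Named genes were the 15 largest called rises and falls (mean of at least 1 CPM in the higher group, same sign in 4 of 4 pairs), the 10 largest in CPM each way, up to 6 noncoding genes, *Gm15551*, *Camk2d*, any called interaction genes, and members of the gene lists. Members and lists were chosen with earlier results of these data known. Some genes are not reported here.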

Additional observations from a re-analysis of the deposited data

Results flagged for a closer look

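Of 106 groups of 4 libraries checked for a value far from the other 3, 8 had one, and chance gives about 1 in 20. Replicate 5 was high in *Pnpla2* with isoproterenol (688 CPM, the others from 329.6 to 366) and in *Car5b* in both groups, with 606 CPM in the control (others 421 to 452) and 292 CPM with isoproterenol (others 197 to 212). The control of replicate 5 also stood apart in the histone gene *H2bc24*, at 13.2 CPM against 1.77 to 1.99 CPM. The control of replicate 3 was high in *Gm29408* (45.4 CPM, others 21.9 to 25.3) and *Il6* (2.04 CPM, others 0.934 to 1.11). The control of replicate 6 was low in *Lipe* (369 CPM, others 617 to 635), and its stimulated library was high in *Tmprss11f* (3.94 CPM, others 0.693 to 1.15).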

How the results depend on the processing

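The pairing by replicate number set the number of calls: without the replicate block 44 genes were called, 28 higher and 16 lower. Without a filter on low counts 783 genes were called (381 higher and 402 lower), against the bound of 0.5 itself 103 (73 and 30), and with the ribosomal RNA share added to the fit 286, of which 116 were lower. Leaving out each replicate number gave from 255 to 415 calls, from 136 to 232 higher and from 119 to 188 lower, with the fewest without replicate 4. DESeq2, other scalings, removal of ribosomal RNA genes and the stricter filter gave from 426 to 469 calls, and all 16 libraries in the fit 588. Of the genes described, DESeq2 did not call *Gdf5*, *Gpd1*, *Pcx*, *Cebpa*, *Tshr* and *Cish*, and the fit of all libraries did not call *H2bc24*, *Scp2-ps2* and *Eno1*. For the interaction with the guides DESeq2 called 3 genes and edgeR from 0 to 1 when a replicate number was left out, the 1 being *Fam177a2* without replicate 3. The log odds difference of the ribosomal RNA share lay between 0.17 and 0.45 when a number was left out. Of the 144 named genes that were called, from 142 to 144 had a value in each setting. None of those changed sign, and genes that were not called were not counted. The cause of these differences was not tested. Genes removed by the count filter, such as *Gm15551*, could not be tested at this depth. *Ucp1*, *Ramp3* and *Tmprss11f* were tested although their controls lay near the 3-count limit.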
